A study of Homo sapiens with 9 samples.

Results

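The genes described here are the 765 genes of human chromosome 12 that reached at least 1 CPM (a gene's counts scaled to a common library total) in at least 3 of 9 RNA sequencing libraries of melanoma cells. The deposited table holds 60675 genes, of which 2897 lie on chromosome 12 of the GRCh38 genome. Of those, 1010 had no count in any library and 1122 had counts but missed the rule. The members comprise 650 protein-coding genes and 115 others, including 26 long intergenic RNAs, 27 antisense RNAs and 37 pseudogenes. Split at 35 Mb, inside the centromere, 186 members lie on the short arm and 579 on the long arm. Just inside the rule lay AC007541.1, CCDC65 and NFE2, whose third-highest library values were 1, 1.005 and 1.010 CPM. Just outside it lay GLI1 at 0.9788 CPM, and GLIPR1 and DDX11-AS1 at 0.9692 CPM each.

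The libraries came from SC01, SC07 and SC10, subclones that were each grown from a single cell of SK-MEL-5, an established melanoma line with a mutated BRAF gene, by limiting dilution without drug. Each clone has 3 libraries, all from untreated cells. The labels state that the choice of clones rested on their early response to the BRAF inhibitor PLX-4720, without giving the response of each clone. Each group is a single clone. No label ties its libraries to separate cultures, so the error terms cover only how these libraries vary, which may be technical, and a clone cannot be told apart from its culture or extraction.

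A chromosome's genes tend to be expressed in proportion to the number of copies a cell carries, so the gain or loss of a chromosome or of a stretch of it moves many neighbouring genes in the same direction by a small amount. Single genes on the stretch can still differ for reasons of their own, through transcription factors, promoter methylation or chromatin state. Cultured melanoma lines commonly carry abnormal chromosome numbers, and cells of a line can differ in them. Chromosome 12 carries genes that matter in melanoma, among them the pigment gene PMEL, the cell cycle kinases CDK4 and CDK2, the p53 antagonist MDM2 and the receptor ERBB3. Only RNA was measured, so no value here is a DNA copy number.

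Chromosome 12 was chosen because its genes were lower in SC10. Both comparisons with SC10 are therefore given as descriptions without tests, and SC07 against SC01, which the choice did not use, was tested. Total counts were between 30224066 and 39454087 per library, and 3 counts corresponded to 0.076 to 0.0993 CPM. Between libraries of a clone, chi-square divided by its degrees of freedom ranged from 2.53 to 5.98, except for SC10 replicate 3, at 10.2 and 11.3 from SC10 replicates 1 and 2. Between clones it ranged from 59.4 to 191. The melanocyte genes MITF, PMEL, MLANA, TYR, TYRP1, DCT and S100B had clone means of 102 to 11846 CPM. SOX10, another defining melanocyte gene, was listed at 0 counts in all 9 libraries. The cause was not tested, and the value is not read as an absence of SOX10 RNA. Of the genes that mark other skin cell types, KRT1 was at 0, and KRT5, KRT6A, CDH5, CD3E, COL1A2 and COL3A1 had clone means of at most 0.0676 CPM. The highest were LUM (138 to 451 CPM) and KRT10 (20.4 to 24.1 CPM). VWF had means of 2.96, 9.14 and 4.77 CPM in SC01, SC07 and SC10, and PTPRC had 0.182, 3.05 and 0.715. DCN, COL1A1 and KRT14 reached clone means of 2.64, 2.15 and 1.2 CPM, and the others listed at most 0.513 CPM.

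Upstream sequences are shown for genes in which SC10 lay far below both other clones, so that their differences can be read beside their promoters. Of CCND2, MGP, ENO2, TMTC1, CPM, C1S and ERBB3, which lay at least 2-fold from both clones by the rules given with them, ENO2, TMTC1 and CPM had an entry in RefSeq's promoter table (GRCh38.p14). Each line gives the 250 bases before the RefSeq gene start, 5′ to 3′ on the gene's strand, with every CG dinucleotide, the site of DNA methylation in mammals, in capitals. The RefSeq start can differ from the start in GENCODE 29, which gives the gene spans printed below: the ENO2 and CPM stretches lie inside those spans, and the TMTC1 stretch lies just outside its span. The ENO2 stretch is chr12:6914330-6914579 on the plus strand, the TMTC1 stretch is chr12:29784760-29785009 on the minus strand, and the CPM stretch is chr12:68933200-68933449 on the minus strand.
ENO2: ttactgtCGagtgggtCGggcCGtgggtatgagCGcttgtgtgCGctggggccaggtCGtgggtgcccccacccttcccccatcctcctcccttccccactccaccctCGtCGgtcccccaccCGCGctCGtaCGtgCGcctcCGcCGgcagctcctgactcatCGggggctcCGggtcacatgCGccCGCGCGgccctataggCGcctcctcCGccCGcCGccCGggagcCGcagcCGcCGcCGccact
TMTC1: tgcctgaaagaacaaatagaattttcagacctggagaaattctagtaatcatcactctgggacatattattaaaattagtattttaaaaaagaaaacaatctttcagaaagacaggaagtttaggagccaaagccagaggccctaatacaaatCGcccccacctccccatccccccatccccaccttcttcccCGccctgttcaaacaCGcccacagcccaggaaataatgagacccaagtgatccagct
CPM: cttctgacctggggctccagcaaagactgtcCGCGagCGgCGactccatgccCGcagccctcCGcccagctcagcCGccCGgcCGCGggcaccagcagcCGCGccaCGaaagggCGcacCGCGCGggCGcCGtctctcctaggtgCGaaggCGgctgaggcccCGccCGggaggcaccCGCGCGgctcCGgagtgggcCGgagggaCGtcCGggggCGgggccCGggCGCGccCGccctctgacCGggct
The sequences differ in CG content. The ENO2 and CPM stretches hold 30 and 36 CG dinucleotides, as many as or more than 89.1% and 96% of all 35116 promoters in the table. The TMTC1 stretch holds 3, and 29.3% of promoters hold 3 or fewer. The 519 members with an entry had a median of 21 CG dinucleotides, against 11 over all promoters. The members had passed the 1 CPM rule and were counted once per gene. All promoters were taken whatever their gene's level, so these medians are not like for like. The median was 21 in the 278 members with an entry whose SC10 libraries all lay below the other 6, and 18.5 in the 36 whose SC10 libraries all lay above. A count of CG is a description of the sequence, and no methylation was measured.

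SC10 had a lower level over most of the chromosome. In each library, the median member was set against its own mean over the 9 libraries, on the log2 scale of CPM scaled by TMM (edgeR's correction for library composition, used for all CPM values of single genes below). It lay at 0.12, 0.11 and 0.11 in SC01, at 0.13, 0.11 and 0.10 in SC07, and at -0.21 in each of the 3 SC10 libraries. All SC10 libraries lay below all others, and SC01 and SC07 overlapped. The median log2 difference of a member was -0.33 between SC10 and SC01 (interquartile range 0.71) and -0.34 between SC10 and SC07 (interquartile range 0.46), so the median member in SC10 stood at 0.797 and 0.789 of its level in those clones. Between SC07 and SC01 it was -0.01 (interquartile range 0.65). Over all 18009 genes tested the median was -0.01 in each of the 3 comparisons. A cell population with less RNA per cell of a gene cannot be told apart here from a population with fewer cells that express it.

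The share of all counts that fell on chromosome 12 was also lowest in SC10, at 5.86% ± 0.057 (mean ± SD, n = 3 libraries, here and below). It was 6.74% ± 0.022 in SC01 and 7.58% ± 0.041 in SC07. PMEL, the most abundant member in every clone, carried much of the distance between SC07 and SC01: without it the share was 6.35% to 6.37% in SC01, 6.44% to 6.5% in SC07 and 5.2% to 5.28% in SC10. The shares of SC10 lay below both others with or without PMEL.

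Single members in SC10 lay below, above or within the range of the other clones. All 3 SC10 libraries lay below all 3 SC07 libraries for 498 members (65.1%), where 26.0% of all genes tested did so, and above them for 97 (12.7%), where 27.4% of all genes did. Against SC01 the counts were 466 below (60.9%, all genes 34.4%) and 160 above (20.9%, all genes 34.6%). SC10 lay below all 6 other libraries for 371 members (48.5%, all genes 14.3%) and above all 6 for 60 (7.84%, all genes 16.5%). Since the members were chosen for this contrast, nothing is read from these shares. Without SC10 replicate 3 the last pair of counts was 400 and 70, with 18.0% and 19.4% over all genes. Differences of 2-fold or more were a minority: 41 members were lower and 21 higher in SC10 than in SC07 (all genes 3.32% and 6.48%), and 73 lower and 59 higher than in SC01 (all genes 8.68% and 11.5%).

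The size of the difference depended little on how well a gene was counted. Among the 255 members with the lowest mean level (0.584 to 13.4 CPM) the median SC10 minus SC07 difference was -0.28, in the 255 above them (13.4 to 51.4 CPM) it was -0.38, and in the 255 highest (51.5 to 7568 CPM) it was -0.35. The spread narrowed with level, with interquartile ranges of 0.62, 0.44 and 0.32. Protein-coding members had a median of -0.35 and the others -0.25. Genes on the plus and minus strands had medians of -0.34 and -0.35.

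Chromosome 12 had the lowest median of the 23 chromosomes (1 to 22 and X) in SC10 minus SC07. Over its 944 tested genes, members or not, the median was -0.34, and the other chromosomes ran from -0.12 to 0.31. In SC10 minus SC01 it was also -0.34, with chromosome 6 lower at -0.42. In SC07 minus SC01 chromosome 12 was at -0.03, in the middle of a range from -0.40 to 0.38. The 2 comparisons with SC10 share the SC10 libraries, and their values are set side by side only.

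**Figure D1:**
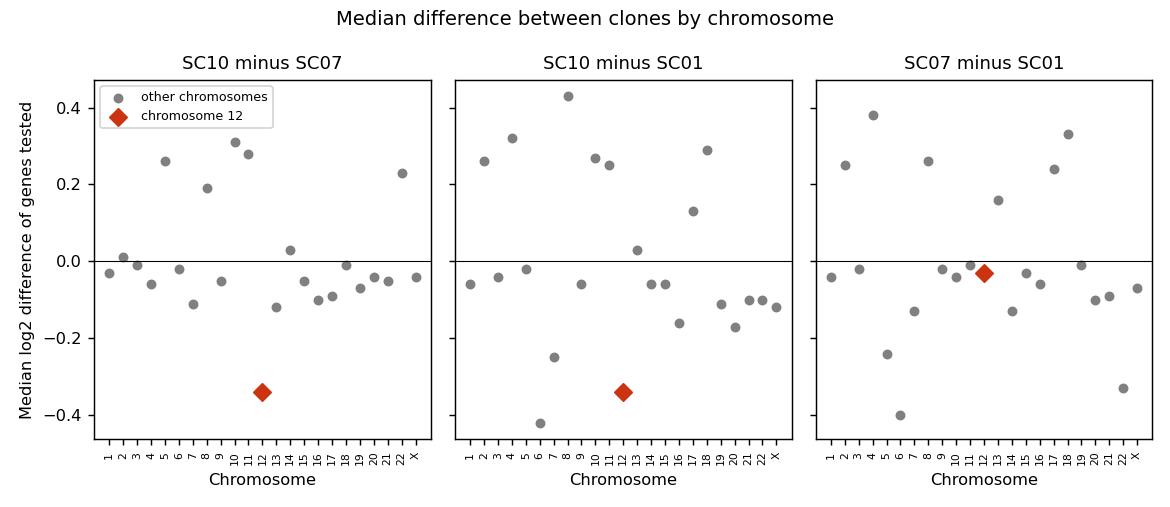
Median log2 difference between clones of all tested genes on each chromosome (vertical axis, log2), 1 point per chromosome, for SC10 minus SC07, SC10 minus SC01 and SC07 minus SC01. Chromosome 12 (red diamond) is the lowest in SC10 minus SC07 at -0.34, stands next to chromosome 6 in SC10 minus SC01, and lies near 0 in SC07 minus SC01.

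Both arms were lower in SC10. On the short arm the libraries stood at 0.19, 0.15 and 0.19 in SC01, 0.14, 0.12 and 0.10 in SC07, and -0.27, -0.31 and -0.29 in SC10, each as the median of 186 members around their own means. On the long arm they stood at 0.10, 0.10 and 0.09, at 0.12, 0.11 and 0.10, and at -0.20, -0.19 and -0.19 over 579 members. No SC10 library overlapped another clone's on either arm. The median differences on the short arm were -0.47 against SC01 and -0.43 against SC07, and on the long arm -0.30 and -0.33. Between SC07 and SC01 the medians were -0.05 on the short arm and 0.00 on the long arm.

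Windows of 10 Mb show where along the chromosome the level was lower. In SC10 minus SC07, 12 of the 14 windows had a median between -0.25 and -0.50. The remaining windows were 30 to 40 Mb, which spans the centromere (24 members, median 0.10), and the end of the long arm from 130 to 133 Mb (30 members, -0.01). In SC10 minus SC01, 13 windows had a median below 0, from -0.12 to -0.59, and the window from 90 to 100 Mb (34 members) stood at 0.04. That value has no fixed sign: it was -0.02 without SC10 replicate 3, -0.07 with library totals alone and -0.07 among members at a mean of 10 CPM. The lowest SC10 minus SC01 median was at the short-arm end, from 0 to 10 Mb (91 members, -0.59, and -0.47 against SC07). The lowest SC10 minus SC07 median was at 70 to 80 Mb on the long arm (25 members, -0.50, and -0.34 against SC01).

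Library values show how closely the replicates tracked each other. In the first 10 Mb the SC01 libraries stood at 0.21, 0.25 and 0.26, SC07 at 0.13, 0.12 and 0.13, and SC10 at -0.34, -0.36 and -0.33, so the 3 clones did not overlap. From 120 to 130 Mb (92 members) SC01 stood at 0.16, 0.19 and 0.19, SC07 at 0.09, 0.05 and 0.09, and SC10 at -0.27, -0.25 and -0.21. SC10 overlapped another clone in 3 windows. From 130 to 133 Mb the SC10 libraries, at -0.01, -0.04 and -0.06, overlapped those of SC07, at -0.08, -0.03 and -0.07, and SC01 lay above both at 0.12, 0.12 and 0.08. From 90 to 100 Mb SC10 replicate 3, at -0.03 beside -0.09 and -0.10 in the other SC10 libraries, lay above 2 of the SC01 libraries, which stood at -0.05, 0.07 and -0.04. In the window at the centromere the SC10 libraries, at 0.05, 0.00 and -0.11, overlapped those of SC07, at 0.08, 0.01 and 0.04, and SC10 replicate 3 held the lowest value. In that window the SC10 minus SC07 median was -0.16 over members whose exons overlap no other gene.

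**Figure D2:**
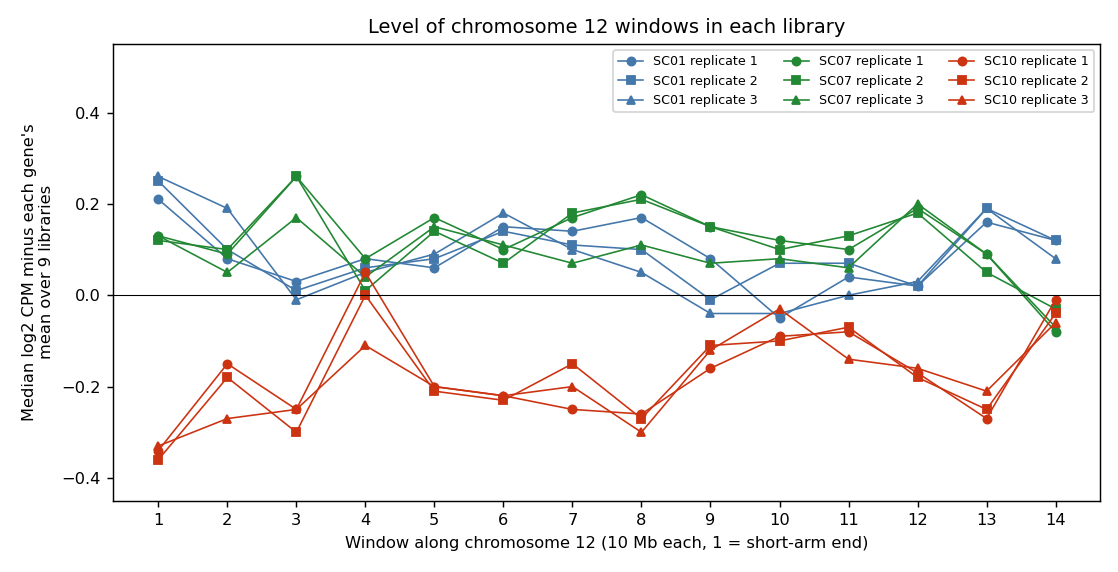
Median over members of log2 CPM minus each gene's mean over 9 libraries (vertical axis) for the 14 windows of 10 Mb in order from the short-arm end (horizontal axis), 1 line per library, coloured by clone. The SC10 lines lie below all others in the first 10 Mb (-0.34, -0.36 and -0.33) and meet the SC07 lines in the window at the centromere (4) and in the last window (14).

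Members were next divided into segments by the values themselves, taking SC10 minus the mean of the other clones in gene order and allowing at least 25 genes to a segment. This gave 5 segments, which are a description since the boundaries came from the same values. Gene starts of the first ran from 0.0 to 31.3 Mb (WASH8P to AC024940.2, 172 members, median -0.47). The second ran from 31.3 to 42.2 Mb across the centromere (SINHCAF to PPHLN1, 25 members, 0.11). The third ran from 42.3 to 96.2 Mb (ZCRB1 to ELK3, 307 members, -0.35), the fourth from 96.3 to 102.1 Mb (CDK17 to PARPBP, 26 members, 0.37), and the fifth from 102.2 to 133.2 Mb (HELLPAR to ZNF268, 235 members, -0.31). The 3 long segments, lower in SC10, thus stand between and around 2 short ones that were not. The division depended on the comparison. SC10 minus SC01 alone gave 4 segments, with the higher stretch from 95.9 to 101.7 Mb (25 members, 0.55) and no segment at the centromere. SC10 minus SC07 alone gave 10, of which those from 12.7 to 17.0 Mb (26 members, 0.07), 31.3 to 42.3 Mb (26 members, 0.10), 96.9 to 102.1 Mb (25 members, 0.21) and 129.1 to 133.2 Mb (31 members, 0.00) were not below 0. SC07 minus SC01 left the 765 members undivided.

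**Figure D3:**
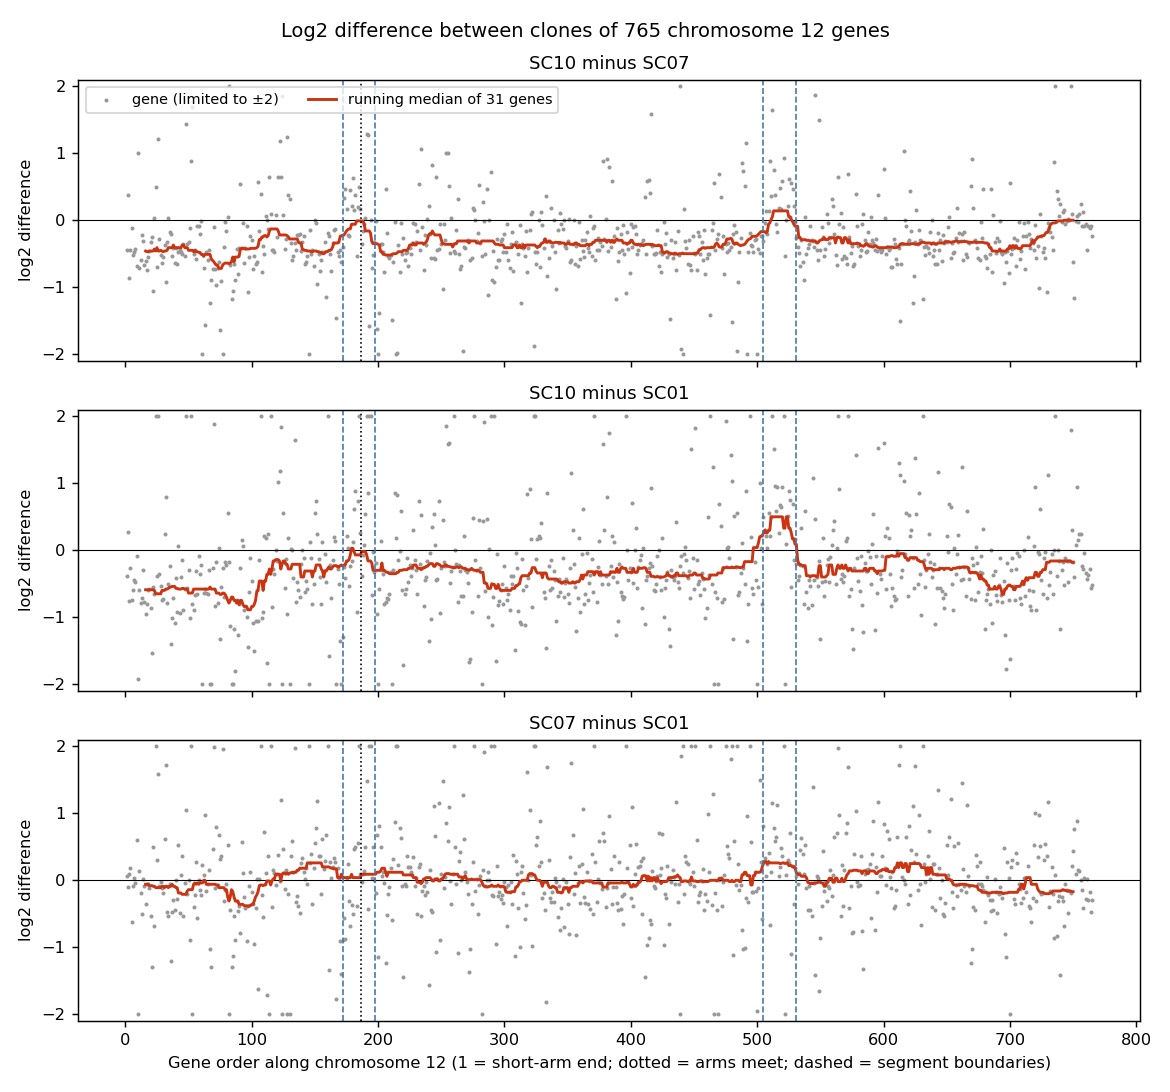
Log2 difference between clones (vertical axis, values beyond 2 drawn at the edge) of the 765 members in order along the chromosome, 1 grey point per gene, with the running median of 31 genes in red, for SC10 minus SC07, SC10 minus SC01 and SC07 minus SC01. The red line lies below 0 over most of the chromosome in both upper panels and rises above 0 between the last pair of dashed lines, which enclose the 26 genes from CDK17 to PARPBP.

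The boundary genes show that a step is seen in medians and not at every gene. At the first boundary AC024940.2 had SC10 differences of -1.30 against SC01 and -0.40 against SC07, and SINHCAF, a subunit of a histone deacetylase complex, had -0.25 and 0.33. At the second, PPHLN1 had -0.32 and -0.32 and ZCRB1 had -0.19 and -0.01. At the third, ELK3, an ETS transcription factor, had -0.81 and -0.23, and CDK17, a cyclin-dependent kinase, had 0.50 and -0.31. At the fourth, PARPBP, a regulator of DNA recombination, had 0.17 and -0.02, and HELLPAR, a long noncoding RNA, had -0.21 and -0.26.

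The 2 short segments differed in how firmly they stood. The centromeric segment had medians of 0.08 against SC01 and 0.16 against SC07. In SC10, 6 of its 25 members lay above all other libraries (all genes 16.5%) and 5 below them (all genes 14.3%). Its median against SC01 was -0.04 without SC10 replicate 3, -0.03 with scaling by library totals alone and -0.02 among members at a mean of 10 CPM, so it has no fixed sign. With a stricter penalty or a minimum of 40 genes it was no segment of its own and fell within a longer, lower one. DNM1L and YARS2 were named after their values were seen, and they go with the 6 members above, not with the 5 below. DNM1L, the GTPase of mitochondrial fission, measured 84.2, 81.6 and 83.2 CPM in SC01, 117, 124 and 112 in SC07, and 152, 153 and 152 in SC10. Its neighbour YARS2, the mitochondrial tyrosyl-tRNA synthetase, had means of 15.6 ± 0.49, 22.7 ± 0.26 and 26 ± 1.9 CPM. Both were called higher in SC07 than in SC01 (adjusted p = 1.72e-10 and 9.63e-08, edgeR), and neither overlapped between any pair of clones.

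The 26 neighbouring genes from CDK17 to PARPBP were the other exception. Their library medians were -0.32, -0.28 and -0.26 in SC01, 0.00, 0.05 and -0.03 in SC07, and 0.23, 0.23 and 0.18 in SC10, in an order that none of the 3 long segments showed. The median differences were 0.53 between SC10 and SC01, 0.20 between SC10 and SC07 and 0.28 between SC07 and SC01. In SC10 13 of the 26 lay above all other libraries (all genes 16.5%) and 0 lay below them (all genes 14.3%), and 17 were above 0 in both comparisons. In the long segments, 9 of 172, 19 of 307 and 13 of 235 members lay above all other libraries. The same SC10 values cut the segments, so nothing is read from these counts. In SC07 against SC01, 16 of the 26 rose and 4 fell at an adjusted p under 0.05, beside 31.5% and 30.5% of all genes. The libraries of both clones entered the values that cut this stretch, so nothing is read from these counts either. A stricter penalty found the same 26 genes, and a minimum of 40 genes widened the stretch to 43 genes from 93.5 to 102.1 Mb with a median of 0.23. On SC10 minus SC01 alone, both of these settings left only 2 segments and no separate stretch.

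Within that stretch the size of the difference varied widely from gene to gene. SLC25A3, the mitochondrial phosphate carrier, measured 606, 621 and 611 CPM in SC01, 809, 799 and 841 in SC07, and 874, 852 and 967 in SC10. GAS2L3, a protein that links actin and microtubules, measured 96.1, 89.7 and 86.7, then 114, 120 and 116, then 179, 189 and 159 CPM. CHPT1, a choline phosphotransferase of phospholipid synthesis, measured 73.5, 75.5 and 71.4, then 84.3, 90.8 and 88.9, then 133, 131 and 142 CPM. In these 3 genes the clones did not overlap and stood in the order SC01, SC07, SC10. The SC07 against SC01 differences were 0.41, 0.36 and 0.26 (adjusted p = 5.67e-09, 2.46e-06 and 2.98e-05, edgeR). ARL1, SCYL2, UHRF1BP1L and WASHC3, genes of intracellular membrane traffic, stood in the same order without overlap.

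The largest differences in the stretch were in genes with low levels in SC01. ANO4, a member of the anoctamin family of membrane proteins, measured 3.38, 3.54 and 3.44 CPM in SC01, 29.6, 28.6 and 29 in SC07, and 54.8, 56.2 and 54.9 in SC10. ANKS1B, a protein of neuronal synapses, measured 3.76, 2.81 and 2.93, then 7.39, 7.01 and 6.95, then 22.8, 23.1 and 20.9 CPM. SC07 rose over SC01 by 8.41-fold in ANO4 (adjusted p = 2.95e-23, edgeR) and 2.23-fold in ANKS1B (adjusted p = 6.41e-10). SC10 stood another 1.91-fold and 3.13-fold above SC07.

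Other genes of the stretch followed SC07 and SC10 together, or went the other way. GNPTAB, which makes the mannose-6-phosphate tag of lysosomal enzymes, measured 274, 272 and 261 CPM in SC01, 440, 440 and 430 in SC07, and 466, 478 and 409 in SC10, where the last pair of clones overlapped. APAF1, the core of the apoptosome, had means of 26.5 ± 1.1, 29.1 ± 2.3 and 37.3 ± 3.2 CPM, and SC07 against SC01 did not pass the test (adjusted p = 0.101, edgeR). IKBIP fell in SC07 (35.3 ± 0.5 CPM, with 56.2 ± 3.1 in SC01, adjusted p = 7.06e-12) and stood at 65 ± 1.6 CPM in SC10. DRAM1, a p53-induced lysosomal membrane protein, fell to 19.3 ± 0.32 CPM in SC07 from 41.3 ± 0.84 (adjusted p = 1.47e-15) and stood at 28.3 ± 0.74 in SC10. SLC5A8, a transporter of short-chain fatty acids, had 406 counts over the SC01 libraries, 6 over SC07 and 4 over SC10. NUP37, a nuclear pore subunit, also fell in SC07, from 31.8 ± 0.86 to 25 ± 0.92 CPM (adjusted p = 7.50e-05).

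**Figure D4:**
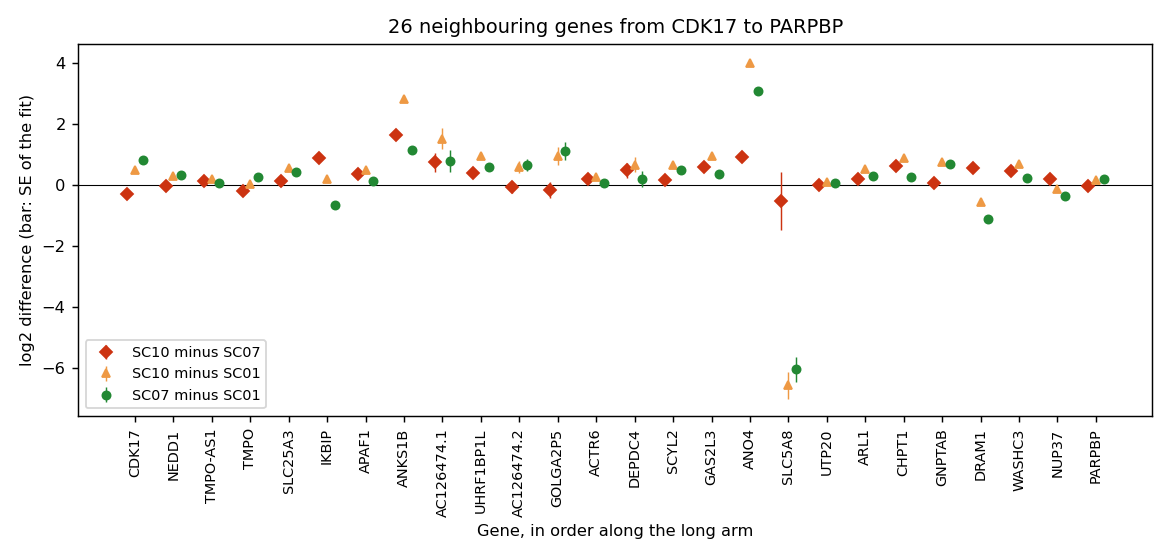
Log2 differences between clones (vertical axis; bars are standard errors of the fit) of the 26 genes from CDK17 to PARPBP in their order along the long arm (horizontal axis). Most points lie above 0; ANO4 is the highest, in SC10 minus SC01, and SLC5A8 lies lowest on few counts in SC07 and SC10.

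Genes against their surroundings were sought in the 677 members of windows with a clear direction, as those at least 2-fold from both clones in the opposite sense, with SC10 libraries apart from the other 6 and a mean of at least 5 CPM in the higher clone. Pseudogenes and genes with only a placeholder symbol were left out of this search. Among the rest, only CCND2 and MGP met the rule. CCND2, cyclin D2, which pairs with CDK4 and CDK6 to pass the G1 phase, lies at chr12:4273772-4305350 on the short arm. It measured 2.03, 1.42 and 2.03 CPM in SC01, 5.63, 6.49 and 4.47 in SC07, and 13.3, 13.2 and 12.1 in SC10. The clones did not overlap, and the log2 difference of SC10 was 2.80 ± 0.14 (SE) from SC01 and 1.21 ± 0.12 from SC07. SC07 rose over SC01 by 1.59 ± 0.15 (adjusted p = 4.81e-10, edgeR).

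The genes next to CCND2 did not follow it, apart from CRACR2A at a low level. TIGAR and C12orf4, which come after it, differed in SC10 by -0.36 and -0.54 from SC01 and by -0.28 and -0.52 from SC07. PARP11, before it, differed by -0.39 and -0.70. CRACR2A, a calcium sensor whose span starts 667 kb before that of CCND2, had means of 0.372 ± 0.05, 2.38 ± 0.16 and 3.35 ± 0.54 CPM in SC01, SC07 and SC10.

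MGP, matrix Gla protein, a secreted inhibitor of calcification, lies at chr12:14881181-14885926. It measured 478, 489 and 513 CPM in SC01, 512, 505 and 454 in SC07, and 1065, 1063 and 1236 in SC10. SC01 and SC07 overlapped (adjusted p = 0.908, edgeR) and SC10 stood 2.27-fold and 2.29-fold above them. The genes around MGP were mixed. C12orf60, just before it, and RERG, a Ras-like growth inhibitor after it, were higher in SC10 by 1.02 and 1.84 against SC01 and by 0.65 and 0.64 against SC07. WBP11, a splicing factor farther before it, differed by -0.16 and -0.25, and PTPRO, a receptor phosphatase, stood at 3.64 ± 0.071, 0.188 ± 0.086 and 0.691 ± 0.28 CPM in the 3 clones.

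With the same genes left out, those along the direction of their windows and past 2-fold were ENO2, TMTC1, CPM, C1S and ERBB3. ENO2, the enolase of neurons and neuroendocrine cells, lies at chr12:6913745-6923698 and the sequence before its RefSeq start is given above. It measured 25.8, 26.1 and 26.8 CPM in SC01, 29.7, 30.5 and 32.2 in SC07, and 0.98, 0.83 and 0.974 in SC10. SC10 stood 28.1-fold below SC01 and 33-fold below SC07, with 97 counts over its 3 libraries against 2665 and 3239. SC07 was higher than SC01 by 0.23 ± 0.06 (adjusted p = 0.00282, edgeR), a call lost with scaling by library totals alone (adjusted p = 0.0915). Its neighbours differed far less: ATN1 by -0.64 and -0.72 in SC10 against SC01 and SC07, LRRC23 by -0.35 and -0.21, the pseudogene DSTNP2 by -0.22 and -0.01, and C12orf57 by -0.58 and -1.57.

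TMTC1, a protein of the endoplasmic reticulum that adds mannose to cadherins, at chr12:29500840-29784759, has the CG-poor upstream sequence. It measured 76.3, 73.9 and 71.5 CPM in SC01, 20.9, 21.5 and 22.6 in SC07, and 8.11, 8.09 and 7.41 in SC10. The 3 clones were stepped without overlap, and SC07 fell by 1.77 on the log2 scale against SC01 (adjusted p = 2.05e-20, edgeR). SC10 stood 9.38-fold below SC01 and 2.75-fold below SC07. The nearest members, ERGIC2 and IPO8, differed in SC10 by 0.14 and -0.28 from SC01 and by -0.13 and -0.47 from SC07.

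The gene CPM encodes carboxypeptidase M, a membrane enzyme that trims basic residues from peptides, at chr12:68842197-68971570. It measured 50.6, 48.2 and 50.3 CPM in SC01, 49.5, 49.9 and 53.8 in SC07, and 19.1, 17.1 and 19.1 in SC10. SC01 and SC07 overlapped (adjusted p = 0.551, edgeR), and SC10 stood 2.7-fold and 2.77-fold below them. The span of MDM2 starts 34 kb before the span of the CPM gene. MDM2 measured 158, 149 and 148 CPM in SC01, 98.6, 97.9 and 92.2 in SC07, and 67.9, 69.2 and 65.3 in SC10. MDM2, the ubiquitin ligase that degrades p53, was thus stepped across the clones where its neighbour was not, and in SC07 it fell by 0.66 (adjusted p = 7.61e-13).

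C1S and C1R, the proteases of the first complement component, lie side by side on the short arm. C1S measured 28.3, 26.3 and 27.5 CPM in SC01, 14.4, 13.4 and 12.3 in SC07, and 5.5, 5.48 and 5.96 in SC10. C1R measured 17.4, 14.2 and 11.1, then 5.35, 6.46 and 5.58, then 2.86, 3.65 and 2.83 CPM. Both were stepped in the same order without overlap, and in SC07 they fell by 1.03 and 1.29 (adjusted p = 1.60e-12 and 1.78e-07, edgeR). C1RL, the gene after them, rose in SC07 (12.1 ± 1.3 CPM against 8.75 ± 0.2 in SC01, adjusted p = 8.59e-05) and stood at 7.29 ± 0.31 in SC10.

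ERBB3, the neuregulin receptor that pairs with other ERBB receptors, lies at chr12:56076799-56103505. It measured 450, 478 and 473 CPM in SC01, 457, 456 and 459 in SC07, and 233, 230 and 210 in SC10. SC01 and SC07 overlapped (adjusted p = 0.563, edgeR), and SC10 stood 2.08-fold and 2.04-fold below. With library totals alone ERBB3 passed as lower in SC07 (-0.14, adjusted p = 0.00555). The ribosomal protein genes on either side, RPS26 and RPL41, differed in SC10 by -0.44 and -0.43 from SC01 and by -0.47 and -0.34 from SC07, nearer to the chromosome's median. PA2G4, which encodes a protein that binds ERBB3, differed by -0.69 and -0.14.

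**Figure D5:**
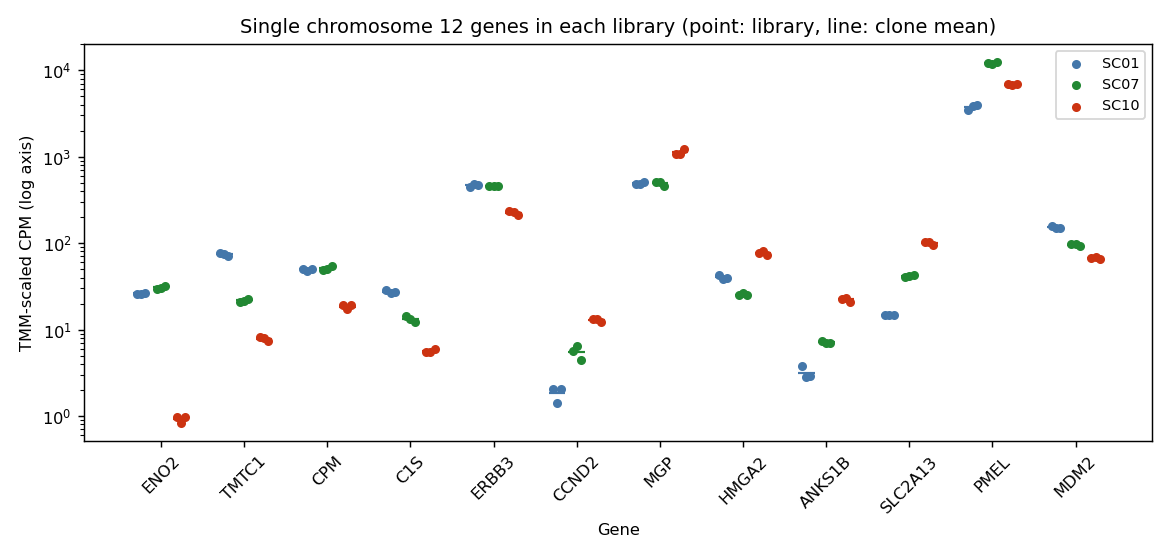
Level of 12 members in each library (vertical axis, TMM-scaled CPM on a log axis), 1 point per library, coloured by clone, with a line at the clone mean. SC10 lies lowest for ENO2, TMTC1, CPM, C1S, ERBB3 and MDM2, and highest for CCND2, MGP, HMGA2, ANKS1B and SLC2A13.

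Other genes that stood highest in SC10 are named after their values were seen. RIMBP2, a scaffold protein of synaptic active zones at the long-arm end, measured 0.576, 0.853 and 1.14 CPM in SC01, 0.548, 1.11 and 1.01 in SC07, and 7.73, 6.2 and 7.29 in SC10. SLC2A13, a proton and myo-inositol symporter, measured 14.6, 14.6 and 14.9, then 40.1, 41.9 and 42.2, then 104, 104 and 94.1 CPM. LRRK2, a kinase known from familial Parkinson's disease and the next gene along, measured 43, 37.8 and 37, then 30.7, 29.2 and 27.8, then 74.2, 71.5 and 67 CPM. SLC2A13 and LRRK2 thus share a high level in SC10, while SC07 rose over SC01 in SLC2A13 (2.82-fold, adjusted p = 2.04e-18, edgeR) and fell in LRRK2 (1.35-fold, adjusted p = 9.80e-07). CRADD, an adaptor of caspase activation, had means of 12.7 ± 0.54, 10.5 ± 0.19 and 23.5 ± 3 CPM, and NR4A1, a nuclear receptor of the immediate early response, had 106 ± 3.8, 101 ± 4.5 and 145 ± 7.3 CPM.

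The comparison of SC07 with SC01 was tested gene by gene. At an adjusted p under 0.05, 264 members rose in SC07 (all genes 31.5%) and 245 fell (all genes 30.5%), together 509 of 765 or 66.5%, against 62.0% of all genes. Rises and falls were thus about even, as they were over the genome, and the median was near 0. By window, falls outnumbered rises at both ends of the chromosome, in the first 10 Mb (32 against 20), from 10 to 20 Mb (14 against 11), from 120 to 130 Mb (36 against 25) and from 130 to 133 Mb (15 against 5), and also from 50 to 60 Mb (57 against 41). Rises outnumbered falls from 20 to 30 Mb (20 against 7), from 40 to 50 Mb (30 against 15), and in the 6 windows from 60 to 120 Mb, where the widest gaps were from 100 to 110 Mb (30 against 17) and from 110 to 120 Mb (32 against 12). From 30 to 40 Mb there were 7 of each. Changes of 2-fold or more comprised 72 higher and 47 lower members, against 9.50% and 9.15% of all genes.

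Among protein-coding genes without a placeholder symbol, the largest rises in SC07 were in genes nearly silent in SC01. MUC19, a gel-forming mucin, measured 0.796, 0.758 and 0.987 CPM in SC01, 105, 128 and 95.5 in SC07, and 38.2, 40.6 and 30.9 in SC10, a 129-fold rise in SC07 (adjusted p = 3.23e-08, edgeR). APOLD1, an endothelial early response gene, measured 1.81, 1.96 and 2.18, then 171, 169 and 164, then 220, 227 and 214 CPM, an 84.8-fold rise (adjusted p = 7.87e-31). SC10 was high beside SC07 in both. OTOGL, an otogelin-like protein, rose 40.7-fold from 0.4 ± 0.082 to 16.6 ± 0.48 CPM, and SLC16A7, the monocarboxylate transporter MCT2, rose 31.4-fold from 1.61 ± 0.42 to 50.8 ± 2.5 CPM. In SC10 these 2 genes stood at 6.23 ± 0.93 and 23.8 ± 2.9 CPM, between the other clones.

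PTPRR, a phosphatase that acts on MAP kinases, was high in SC07 alone, at 8.55, 7.31 and 7.04 CPM. It measured 0.302, 0.411 and 0.538 CPM in SC01 and 0.272, 0.208 and 0.502 in SC10, which overlapped, and the rise in SC07 over SC01 was 18.3-fold (adjusted p = 1.16e-15, edgeR). ITGA7, a laminin-binding integrin chain, rose 14.8-fold, from 15, 17.5 and 16.5 CPM in SC01 to 237, 249 and 238 in SC07 (adjusted p = 1.70e-28), and stood at 173, 176 and 172 CPM in SC10. Both genes lie in windows where SC10 was lower than SC07.

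Falls in SC07 took several shapes across the 3 clones. A2M, alpha-2-macroglobulin, a broad protease inhibitor, measured 72.7, 87.3 and 84.4 CPM in SC01, 6.11, 5.05 and 6.06 in SC07, and 75.9, 70.9 and 70.6 in SC10. SC07 was 14.2-fold below SC01 (adjusted p = 2.37e-22, edgeR), and SC10 overlapped SC01. EMP1, an epithelial membrane protein, measured 155, 151 and 150, then 15.1, 14.1 and 15.8, then 22.2, 24.4 and 23.4 CPM, a 10.1-fold fall (adjusted p = 7.04e-27) that SC10 largely shared. TMTC2, a relative of TMTC1, had means of 28.3 ± 1.1, 4.84 ± 0.38 and 4.21 ± 0.14 CPM. P3H3, a prolyl hydroxylase of collagen, fell 5.66-fold in SC07 to 4.62 ± 0.53 CPM and stood at 14.9 ± 1.1 in SC10. MGST1, a microsomal glutathione transferase, fell 4.58-fold and PITPNM2, a lipid transfer protein, 4.5-fold.

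Members were also grouped by function in lists. Since 65.1% of all members lay below SC07 and 60.9% below SC01 in SC10, a list near those shares does not stand apart from the chromosome, and no list was tested against it. The MAP kinase pathway and growth factor list held 18 members, of which 8 rose and 6 fell in SC07 against SC01 (all genes 31.5% and 30.5%). In SC10, 13 lay below and 3 above all SC07 libraries (all genes 26.0% and 27.4%), and 11 below and 4 above all SC01 libraries (all genes 34.4% and 34.6%), with medians of -0.37 and -0.36. DUSP6, a phosphatase of ERK and a readout of its activity, measured 44.8, 43.1 and 48.2 CPM in the SC01 libraries, 64.6, 64.9 and 64 CPM in those of SC07, and 46.8, 45.5 and 47.5 CPM in those of SC10. It rose in SC07 (adjusted p = 1.25e-09, edgeR), its libraries overlapped between SC10 and SC01, and 40.5% of the exon bases of DUSP6 overlap another gene. PTPN11, the phosphatase SHP2 that relays receptor signals to RAS, was stepped down the clones at 306 ± 9.7, 233 ± 8.1 and 182 ± 12 CPM.

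Other genes of the list also rose in SC07. RASAL1, which switches RAS off, rose from 2.68 ± 0.18 to 16.7 ± 1.5 CPM (adjusted p = 9.04e-18, edgeR) and stood at 5.86 ± 0.5 in SC10. KITLG, the ligand of the KIT receptor of melanocytes, rose from 3.66 ± 0.51 to 18 ± 0.46 CPM (adjusted p = 1.18e-17) and stood at 14 ± 0.67. SH2B3, an adaptor that dampens cytokine signals, rose from 66.4 ± 2.2 to 149 ± 5.6 CPM (adjusted p = 4.28e-17) and stood at 192 ± 15. Of the 3 measured WNT pathway members, WNT5B, WNT10B and the co-receptor LRP6, all fell in SC07 (all genes 30.5%). WNT10B went from 20.5 ± 0.83 to 14.1 ± 1 CPM and stood at 29.4 ± 2.9 in SC10. The fall of LRP6 (adjusted p = 0.0244) was lost without SC01 replicate 1, SC07 replicate 1 or SC07 replicate 3 (adjusted p = 0.132, 0.0953 and 0.107).

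The cell cycle, DNA repair and p53 list held 34 members, among them 31 that lay below and 2 above all SC07 libraries in SC10 (all genes 26.0% and 27.4%), with a median of -0.47. Against SC01, 26 lay below and 4 above (all genes 34.4% and 34.6%), with a median of -0.46. SC07 against SC01 gave 8 rises and 11 falls (all genes 31.5% and 30.5%). CDK4 measured 199, 203 and 212 CPM in SC01, 193, 178 and 202 in SC07, and 156, 148 and 162 in SC10, and CDK2 measured 739, 754 and 744, then 941, 929 and 906, then 615, 630 and 643 CPM. SC10 lay below all others in both. CDK2 rose in SC07 (adjusted p = 8.84e-08, edgeR). The CDK2 gene lies within the span of PMEL, and 16.8% of its exon bases overlap another gene, so reads of PMEL could enter its count. CDK4 did not pass (adjusted p = 0.0749), and its difference of -0.10 passed without SC01 replicate 1, SC07 replicate 3, SC10 replicate 2 or SC10 replicate 3 (adjusted p = 0.0469, 0.018, 0.0486 and 0.0139), with the replicate number as a block (0.0362) and with library totals (0.000299). CDKN1B, the p27 inhibitor of these kinases, measured 38.4, 38.7 and 38.6 CPM in SC01, 40.3, 38.9 and 37.9 in SC07, and 35.6, 33.1 and 36.1 in SC10.

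FOXM1, a transcription factor of mitotic genes, had means of 142 ± 1.6, 136 ± 5.3 and 81.2 ± 3.7 CPM in SC01, SC07 and SC10. It was named after its values were seen. BTG1, an antiproliferative gene, fell in SC07 from 108 ± 0.62 to 49.9 ± 2.7 CPM (adjusted p = 1.06e-16, edgeR) and stood at 43.1 ± 2.8 in SC10. NUAK1, an AMPK-related kinase, fell from 15.1 ± 0.75 to 8.25 ± 0.64 CPM (adjusted p = 7.07e-09) and stood at 6.02 ± 0.78. CCND2, described above, was the member of the list that went farthest the other way.

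The pigment cell list held 9 members, of which 6 rose and 1 fell in SC07 (all genes 31.5% and 30.5%). PMEL, the fibril protein of melanosomes, measured 3436, 3849 and 3965 CPM in SC01, 12157, 11799 and 12440 in SC07, and 6863, 6665 and 6935 in SC10. The clones did not overlap, and SC07 rose 3.24-fold over SC01 (adjusted p = 7.50e-22, edgeR). SC10 lay below all SC07 libraries in 8 of the 9 and above them in 0 (all genes 26.0% and 27.4%), with a median of -0.47. RAB21, an endosomal GTPase, rose from 43.5 ± 0.65 to 51.5 ± 0.21 CPM in SC07 (adjusted p = 0.000234) and stood at 32.6 ± 2.1 in SC10.

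Of 28 energy metabolism members 22 rose in SC07 and 2 fell (all genes 31.5% and 30.5%), with a median of 0.39 against SC01, where the median of all genes was -0.01. In SC10 the list divided evenly against SC01, 13 below and 13 above (all genes 34.4% and 34.6%), with a median of -0.04. Against SC07, 24 of 28 lay below and 4 above (all genes 26.0% and 27.4%), with a median of -0.45. GAPDH, of glycolysis, measured 2146, 2194 and 2187 CPM in SC01, 3158, 3043 and 3235 in SC07, and 2249, 2198 and 2351 in SC10. SC07 rose 1.45-fold (adjusted p = 5.39e-12, edgeR). SC10 lay just above SC01 without overlap, at 1.04-fold or a log2 difference of 0.06. With library totals alone the median of all genes in that comparison was -0.12, so no direction is given for so small a difference. ATP5F1B, a subunit of ATP synthase, had means of 1433 ± 41, 3012 ± 80 and 2184 ± 105 CPM, and CS, citrate synthase, 396 ± 4.3, 629 ± 19 and 491 ± 4.9 CPM. TPI1 and LDHB, also of glycolysis, were highest in SC07 (807 ± 28 and 1044 ± 35 CPM) and lowest in SC10 (539 ± 40 and 756 ± 62 CPM).

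Members of the energy list that stood apart were ENO2, COQ10A and ALDH1L2. COQ10A, a coenzyme Q binding protein, rose from 14.4 ± 0.44 to 48.9 ± 2.4 CPM in SC07 (adjusted p = 1.27e-19, edgeR) and stood at 32.2 ± 1.1 in SC10. ALDH1L2, a mitochondrial folate enzyme, fell from 4.56 ± 0.35 to 1.7 ± 0.25 CPM (adjusted p = 4.58e-09) and stood at 6.25 ± 0.66 in SC10. Scaling by library totals alone moved the median of all genes to -0.12 in both comparisons with SC01, so list medians of that size or less against SC01 have no sign independent of the scaling.

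Of 23 chromatin regulators, 20 lay below and 1 above all SC07 libraries in SC10 (all genes 26.0% and 27.4%), and 19 lay below and 1 above all SC01 libraries (all genes 34.4% and 34.6%), with medians of -0.45 and -0.50. In SC07 against SC01, 5 rose and 7 fell (all genes 31.5% and 30.5%). The member above both was HMGA2, a chromatin protein of embryonic and mesenchymal cells, which measured 42.9, 38.3 and 39.3 CPM in SC01, 25.3, 26.2 and 24.8 in SC07, and 77, 80.1 and 73.2 in SC10. It fell in SC07 (adjusted p = 7.93e-11, edgeR), and SC10 stood 1.91-fold above SC01 and 3.02-fold above SC07. LLPH, the coding gene after it, differed in SC10 by -0.24 and -0.38. ING4, of a histone acetyltransferase complex, averaged 13.9 ± 1.4 CPM over the SC01 libraries, fell to 9.51 ± 0.73 CPM in SC07 (adjusted p = 1.08e-05, edgeR), and stood at 7.44 ± 0.43 CPM in SC10.

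In the ribosomal protein and translation list, 0 of 14 rose and 8 fell in SC07 against SC01 (all genes 31.5% and 30.5%), with a median of -0.24. In SC10, 13 of 14 lay below all SC01 libraries (all genes 34.4%) and 13 below all SC07 libraries (all genes 26.0%), with medians of -0.63 and -0.33. RPLP0, a stalk protein of the large ribosomal subunit, measured 1862, 2000 and 2020 CPM in SC01, 1387, 1331 and 1428 in SC07, and 1185, 1108 and 1276 in SC10. RPL6 had means of 856 ± 25, 646 ± 9 and 533 ± 46 CPM. Both fell in SC07 (adjusted p = 4.60e-10 and 3.64e-08, edgeR), as did EIF2B1, a subunit of the eIF2 exchange factor (113 ± 3.3 to 84.6 ± 2.4 CPM, adjusted p = 1.65e-08). GATC and GTF2H3 were stepped down the clones in the same way, and 47.6% of the exon bases of GATC overlap another gene.

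The keratin and lectin clusters of the chromosome had few members, and the HOXC cluster had more. Of 27 keratin genes, 3 were members. KRT18 rose in SC07 from 4.2 ± 0.7 to 15.9 ± 0.41 CPM (adjusted p = 1.17e-15, edgeR) and stood at 15.8 ± 0.85 in SC10, KRT80 fell, and KRT8 did not pass (adjusted p = 0.635). Of 29 genes of the natural killer and C-type lectin cluster, 3 were members, and CLEC2B fell from 6.67 ± 0.54 to 3.85 ± 0.55 CPM (adjusted p = 8.58e-06). Of 10 genes of the HOXC cluster, which sets position along the body axis, 6 were members, with 2 rises and 3 falls in SC07 (all genes 31.5% and 30.5%). HOXC4 fell from 11.9 ± 0.86 to 5.99 ± 0.28 CPM (adjusted p = 2.55e-09), HOXC13 rose from 17 ± 0.88 to 22.2 ± 0.51 CPM (adjusted p = 3.03e-05), and HOXC9, at 12.4 ± 0.88 and 13.3 ± 0.71 CPM, did not pass (adjusted p = 0.294). In SC10, 5 of the 6 lay below all SC01 libraries (all genes 34.4%) and 4 below all SC07 libraries (all genes 26.0%).

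Surface and membrane genes went in both directions. Of 21 matrix, integrin and cytoskeleton members, 8 rose and 9 fell in SC07 (all genes 31.5% and 30.5%), and in SC10, 13 lay below and 4 above all SC07 libraries (all genes 26.0% and 27.4%), with a median of -0.20. LUM, lumican, a matrix proteoglycan, measured 133, 129 and 132 CPM in SC01, 478, 484 and 423 in SC07, and 350, 332 and 368 in SC10. LUM rose in SC07 (adjusted p = 9.79e-22, edgeR). With scaling by library totals alone DCN, its neighbour and a fibroblast gene, had clone means of at most 2.64 CPM. Of 20 channels and transporters, 12 rose and 4 fell in SC07, beside the same shares of all genes, and in SC10, 9 lay below and 6 above all SC07 libraries, with a median of -0.05. SLC4A8, a bicarbonate transporter, rose from 0.578 ± 0.28 to 5.3 ± 0.28 CPM (adjusted p = 1.24e-13) and stood at 5.9 ± 0.61 in SC10.

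Of 16 members for protein folding, stress and redox, 9 rose and 3 fell in SC07 (all genes 31.5% and 30.5%), and 13 lay below and 2 above all SC07 libraries in SC10 (all genes 26.0% and 27.4%). DNAJC22, a membrane-bound DNAJ protein, rose from 8.73 ± 0.44 to 18.8 ± 0.63 CPM (adjusted p = 8.88e-13, edgeR) and stood at 12.7 ± 0.13 in SC10. ATF7, a transcription factor of the CREB family, had means of 34.4 ± 1, 30.4 ± 2.2 and 18.6 ± 1.3 CPM. Its fall in SC07 (adjusted p = 0.0201) was lost without SC01 replicate 2, SC07 replicate 1 or SC07 replicate 2 (adjusted p = 0.0674, 0.111 and 0.0807), and 43.8% of its exon bases overlap another gene.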

How the data were processed

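RNA was sequenced in 9 libraries, 3 from each of the clones SC01, SC07 and SC10, and libraries were assigned to clones by their labels. The authors deposited raw counts per Ensembl gene. HISAT2 and featureCounts were run on GRCh38 per the submitters' processing notes, with versions, annotation release and strand setting not given in the sources used here. Of the members, 410 share exon bases with another gene, and how reads on shared bases were counted is not given in those sources. Positions came from GENCODE 29, which held 57055 of the 60675 IDs.

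After filterByExpr, edgeR 4.0.16 (R 4.3.3) was used with TMM scaling and a robust quasi-likelihood fit of the 9 libraries together, which left 6 residual degrees of freedom, and p-values were adjusted by Benjamini-Hochberg over 18009 genes. All 765 members were among these. Standard errors are of the fitted log2 difference. The common biological coefficient of variation was 0.0523. Segments were found by least-squares partitioning of differences limited to a log2 size of 1. Sequences came from RefSeq (GRCh38.p14).

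The members, the lists and the standing genes (CDK4, CDK2, MDM2, CCND2, CDKN1B, ERBB3, PMEL, DUSP6, GAPDH, LUM and HMGA2) were chosen with earlier results of these data known. Named genes were those against or along their window by 2-fold, up to 6 per direction for SC07 against SC01, up to 3 per list by the largest difference, the standing genes, and those at segment boundaries and at the edge of the rule. Genes in the stretch from CDK17 to PARPBP, neighbours, and a few list members (PTPN11, WNT5B, ATP5F1B, CS, TPI1, LDHB, DNM1L, YARS2, RPLP0, RPL6, KRT8, KRT80 and DCN) were named after their values were seen. Some genes these rules name are not reported here. The fit was tested on counts simulated for SC07 against SC01, with 50 of 17514 genes changed at each of several folds. At an adjusted p under 0.05 it found 54% of 1.25-fold, 82% of 1.5-fold and 94% of 2-fold changes. Of its calls, 7.39% were false. Alternatives were other scalings, DESeq2 1.42.0, limma-voom (limma 3.58.1), other filters, a replicate block and leaving out each library.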

Additional observations from a re-analysis of the deposited data

How the results depend on the processing

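Under every alternative run, both arm medians of SC10 against either clone stayed below 0. Against SC01 and SC07, the mean of differences trimmed at 1 was -0.36 and -0.30 on the short arm and -0.19 and -0.25 on the long arm. With library totals alone, the medians of SC10 minus SC01 were -0.58 (short) and -0.41 (long), and those of SC07 minus SC01 were -0.16 and -0.10, since that scaling moved the median of all genes to -0.12. With TMM factors from genes off chromosome 12, the long arm stood at -0.32 against SC01 and -0.35 against SC07. Among members at a mean of 10 CPM the long arm stood at -0.32 and -0.34 and the short arm against SC07 at -0.45. There the SC10 libraries lay above all of SC01 for 101 members and above all of SC07 for 56. These counts cover only a part of the members, and no share of all genes at that level was computed, so nothing is read from them. Among protein-coding members the short arm stood at -0.41 in SC10 minus SC01 and 0.01 in SC07 minus SC01, and the long arm at -0.35 in SC10 minus SC07 and 0.02 in SC07 minus SC01. Among members whose exons overlap no other gene, an alternative chosen after seeing the data, the short arm stood at -0.58 in SC10 minus SC01 and -0.13 in SC07 minus SC01, and the long arm at -0.31 and 0.02. There the window from 100 to 110 Mb, which holds part of the stretch from CDK17 to PARPBP, changed sign in SC10 minus SC01, from -0.15 to 0.04, and the cause was not tested. Subtracting the median of all genes, also chosen after seeing the data, gave -0.29 and 0.01 on the long arm against SC01 in SC10 and SC07. For SC07 minus SC01 on that arm, no filter gave 0.01 and the trimmed mean 0.05, so no direction is given for it. Of 1140 recomputed medians of windows and segments, 939 moved by less than the spread between libraries and 200 by more.

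Leaving out each library in turn gave short-arm medians of -0.51 to -0.45 (SC10 minus SC01), -0.42 to -0.39 (SC10 minus SC07) and -0.06 to -0.03 (SC07 minus SC01), and long-arm medians of -0.30 to -0.29, -0.33 to -0.32 and -0.01 to 0.02. Rises in SC07 ranged from 247 to 277 and falls from 223 to 260. SC10 lay below SC01 for 474 to 495 members and above for 165 to 173, and below SC07 for 509 to 520 and above for 102 to 115. Leaving out a library can only keep or raise these counts of libraries that do not overlap, so they do not check the main counts. No share of all genes was computed beside them.

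Replicate numbers are shared between clones but did not pair the libraries: deviations of same-numbered libraries from their clone means correlated at -0.0195 to 0.0429. With the replicate number as a block, 266 members rose and 248 fell in SC07 against SC01, and the arm medians were -0.47 and -0.30 (SC10 minus SC01), -0.42 and -0.33 (SC10 minus SC07), and -0.05 and 0.00 (SC07 minus SC01). Depth limits genes near 3 counts in a library, such as SLC5A8 in SC07 and SC10, where no fold between these clones is given.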
